A study of Arabidopsis thaliana with 12 samples.

Results

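Germinating seeds of the amiR-HsMYO line of Arabidopsis thaliana, called HsMYO here, were compared with and without the hormone abscisic acid (ABA). HsMYO is the control line of a study of SPLAYED (SYD), the gene of a chromatin-remodelling ATPase, and serves here to describe what ABA does to seeds with normal SYD beyond the well known ABA marker genes. The comparison used 4 of the 12 libraries of the series, chosen by their labels, 2 from seeds on 2 µM (±)-ABA and 2 from seeds on 0.002% ethanol, the solvent. The other 8 libraries came from 2 lines, amiR-SYD-1 and amiR-SYD-2, called SYD1 and SYD2 here, that express artificial microRNAs against SYD, under the same 2 treatments. They entered the fit, where they helped to estimate the spread, and gave the test of where HsMYO responded differently. Before treatment all seeds spent 3 dark days at 4 °C, and the 24 h on either medium ran under days of 16 h light and 8 h dark at 22 to 24 °C. HsMYO carries an artificial microRNA of its own and is 1 line, so these values stand for that line and not for untransformed seeds.

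ABA holds seeds in the state that follows maturation: it acts through soluble receptors, protein phosphatases and kinases on bZIP transcription factors, which bind promoter elements with the core ACGTG. Its best known targets are genes of late embryo development and drought protection. ABA delays germination, the mobilisation of reserves and the growth of the seedling. Less often described are its effects on enzymes of carbon and nitrogen metabolism, the cell wall, ion transport, protein turnover and noncoding RNA, which are the subject here.

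Total counts were 30012796 and 25486979 for HsMYO on ABA (replicates 1 and 2) and 22648488 and 24613812 on ethanol. Levels are given as CPM, counts scaled to a common library size with trimmed mean (TMM) factors, and CPM does not allow for gene length, so levels are not compared between genes. Over genes with enough counts, replicate differences exceeded counting error, by a chi-square per degree of freedom of 13.31 on ABA and 4.71 on ethanol. The same measure was 2.4 and 3.06 for SYD1 on ABA and ethanol and 3.78 and 9.03 for SYD2. It scales libraries by their totals, without TMM factors, and it grows with depth. A scaling offset within a pair therefore counts in it, and it does not rank the groups by replicate spread. The labels call the replicates biological but do not say whether they came from separate plants or seed batches. P-values therefore measure the spread between libraries, estimated over all 12 together and not from HsMYO alone. The labelled tissue was checked with marker lists. Of 9 embryo reserve genes, all were tested, and their summed level was 268 and 89.5 CPM on ethanol replicates 1 and 2 and 1290 and 1056 CPM on ABA. In whole seeds, fewer cells of a type and less RNA per cell cannot be told apart. Of 3 tested endosperm genes, the mannanase gene MAN7 rose from 40.6 and 37.6 CPM on ethanol to 264 and 227 CPM on ABA (log2 2.65) and the expansin gene EXPA2 from 522 and 471 to 1010 and 889 CPM (0.94). The third, the wall protein gene EPR1, stood at 3894 and 2349 CPM on ethanol and 1966 and 2389 CPM on ABA. These groups overlap, and EPR1 was not called in the main fit. Some other settings called EPR1 lower, among them library totals (log2 -0.495), no low-count filter (-0.554) and the replicate number as a block (-0.479). Without HsMYO on ethanol replicate 2 its log2 fold change was -0.839. Of 5 root epidermis genes, 4 were lower, all past 2-fold and with at most 1 count over both ABA libraries, and RHD6 was at 18.7 and 19.3 CPM on ethanol and 23.4 and 22.3 CPM on ABA. The rise of RHD6 (log2 0.26) was not called with DESeq2 (0.24), without HsMYO on ABA replicate 1 (0.23) or on ethanol replicate 1 (0.23). Pollen markers, from a tissue that seeds lack, were at or near 0 (at most 0.04 CPM summed).

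ABA changed many transcripts by small steps and a smaller set by large ones. Of 19612 tested genes, 10594 were called at an adjusted p under 0.05 (edgeR's quasi-likelihood F-test, Benjamini-Hochberg adjustment), 54.0% of those tested. Of these, 5272 were higher on ABA (26.9%) and 5322 lower (27.1%). Large changes leaned downward, with 1020 genes called and at least 2-fold higher (5.2%) and 1957 called and at least 2-fold lower (9.98%). The first set held 6.67 and 6.49% of all counts on ABA against 1.17 and 1.1% on ethanol, and the second held 2.35 and 2.22% against 7.3 and 7.44%. The 2 libraries on ABA lay on 1 side of both on ethanol for 75.3% of tested genes, so lack of overlap alone says little here. For 13927 genes (71.0%) the 95% interval of the log2 fold change lay within 1 of 0, and for 754 (3.84%) within 0.2. Among the steadiest were the ubiquitin fusion gene UBQ5, at 1211 and 1175 CPM on ethanol and 1228 and 1166 CPM on ABA, and the ribosomal protein gene RPL18, at 1149 and 1170 CPM and 1160 and 1123 CPM.

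**Figure D1:**
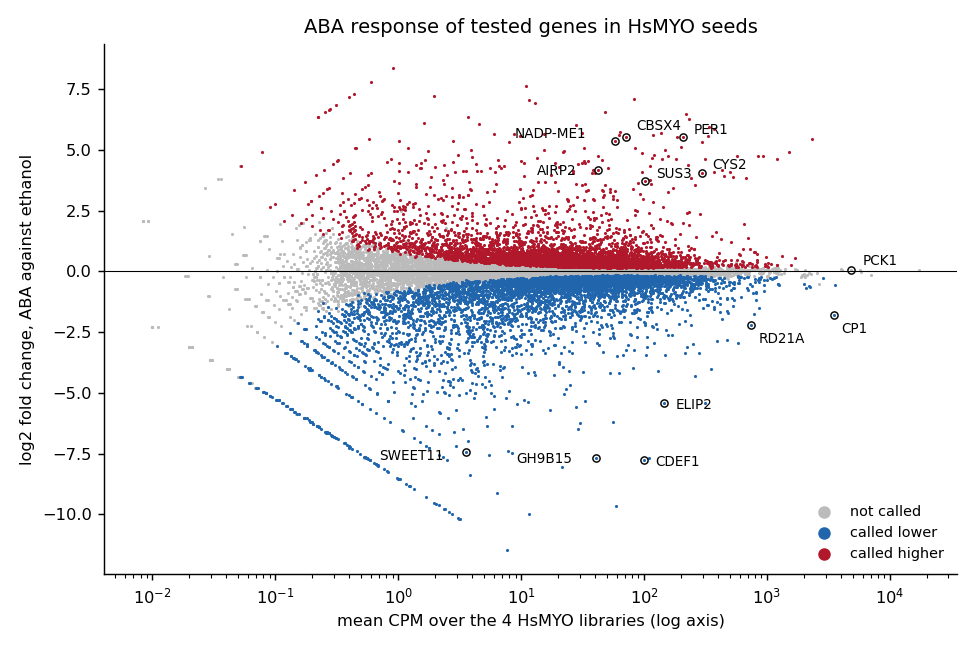
Log2 fold change on ABA against ethanol in HsMYO (vertical axis) by mean level over the 4 HsMYO libraries in CPM (horizontal log axis), 1 point per tested gene, red where called higher, blue where called lower and grey where not called. CBSX4 (log2 5.53) and CDEF1 (-7.77) stand near the ends among well counted genes with a symbol, and the diagonal rows at the lower left are genes with few or no counts on ABA.

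Outside a set of well known ABA and seed markers, which holds the peroxiredoxin gene PER1 and the oleosin genes, and among genes with a symbol, a mean of at least 10 CPM on ABA and over 3 counts on ethanol, the steepest rises were in genes of seed maturation and in enzymes of several pathways. CBSX4, for a protein with CBS domains, went from 3.31 and 2.72 CPM on ethanol to 119 and 159 CPM on ABA, 46.3-fold higher (log2 5.53 ± 0.15 SE, adjusted p = 4.6e-13). NADP-ME1, for a cytosolic NADP-dependent malic enzyme, went from 4.02 and 1.65 to 112 and 116 CPM (log2 5.36 ± 0.20, adjusted p = 5e-12). The groups were far apart for both genes. DSI-1VOC, for a desiccation-induced glyoxalase-like protein, rose by 5.0, the beta-glucosidase gene BGLU19 by 4.96, ASG4, for a MYB-related protein named for altered seed germination, by 4.94, and SCPL19, for the enzyme that makes sinapoylcholine, by 4.61 on the log2 scale. RAB28 (4.67), the dehydrin-like gene AT2G21490 (annotated as LEA, 4.63), SMP1 (4.56) and ATPXG2 (4.49), for a seed caleosin-type peroxygenase, completed the 10 highest of these. Beside these genes, summed embryo reserve markers were also higher on ABA, with 3 of 9 called higher (OLEO1, OLEO2 and CRA1; 6 without HsMYO on ethanol replicate 1), and on ethanol replicate 1 held 268 CPM of them against 89.5 CPM in replicate 2. The part of this difference in the rises was not tested.

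The bases just before the start of 4 of these risen genes, and of 1 steeply fallen gene, are printed as examples. They show how the ABRE core, ACGTG on either strand, was placed in these genes. Each run ends at the base before the gene start of the RefSeq annotation (TAIR10.1), reads 5′ to 3′ on the gene's strand, is 250 bases long and has its ABRE cores in capitals, a CACGTG box (a G-box, which reads as a core on both strands) counting as 1 site.
NADP-ME1 (chr2:8595560-8595809, minus strand): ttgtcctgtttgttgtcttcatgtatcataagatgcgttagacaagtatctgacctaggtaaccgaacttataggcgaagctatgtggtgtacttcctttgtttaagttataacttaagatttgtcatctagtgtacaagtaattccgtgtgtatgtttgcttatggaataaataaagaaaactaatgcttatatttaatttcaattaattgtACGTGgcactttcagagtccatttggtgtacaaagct
DSI-1VOC (chr1:2368437-2368686, minus strand): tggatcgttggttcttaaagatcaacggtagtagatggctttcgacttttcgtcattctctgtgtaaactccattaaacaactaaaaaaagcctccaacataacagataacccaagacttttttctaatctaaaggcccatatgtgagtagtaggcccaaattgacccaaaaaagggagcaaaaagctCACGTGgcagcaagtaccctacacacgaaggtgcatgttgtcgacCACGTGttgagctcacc
ASG4 (chr1:190158-190407, plus strand): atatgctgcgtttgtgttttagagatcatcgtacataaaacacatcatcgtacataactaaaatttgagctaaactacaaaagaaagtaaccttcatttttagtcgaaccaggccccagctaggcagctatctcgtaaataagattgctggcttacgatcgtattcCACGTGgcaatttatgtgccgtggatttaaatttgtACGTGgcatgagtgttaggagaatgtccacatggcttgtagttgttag
RAB28 (chr1:751941-752190, plus strand): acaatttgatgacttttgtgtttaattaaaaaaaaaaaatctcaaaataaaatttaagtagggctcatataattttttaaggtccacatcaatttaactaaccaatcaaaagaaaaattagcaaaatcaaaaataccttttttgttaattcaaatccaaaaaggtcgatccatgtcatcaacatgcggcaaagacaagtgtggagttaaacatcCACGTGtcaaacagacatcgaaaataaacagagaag
LHCB2.3 (chr3:10255656-10255905, plus strand): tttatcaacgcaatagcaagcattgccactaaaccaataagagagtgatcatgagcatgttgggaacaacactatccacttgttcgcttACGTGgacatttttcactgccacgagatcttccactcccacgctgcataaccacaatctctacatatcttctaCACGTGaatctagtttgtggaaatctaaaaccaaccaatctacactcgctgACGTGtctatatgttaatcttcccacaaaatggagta

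NADP-ME1 had 1 site, 37 bases before the start, and RAB28 had 1, a G-box, at 36 bases. DSI-1VOC had 2 G-boxes, at 62 and 17 bases, and ASG4 a G-box at 84 bases and a core at 48 bases. LHCB2.3, for a light-harvesting protein of the antenna, had 3 sites, at 161, 88 (a G-box) and 37 bases, and fell on ABA from 10.6 and 10.3 CPM to 0.235 and 0 CPM (log2 -6.34 ± 0.52, adjusted p = 5.5e-08). LHCB2.3 has near-identical copies, so its count is uncertain. A match of letters is a description and not a bound site, and ATPXG2, another of those 10, had none in its 250 bases. Other risers had sites further off, CBSX4 at 135 bases and SCPL19 at 102 and 78 bases. LHCB2.3 had the most sites of the steepest falls. Of the others, named below, CDEF1, GH9B15 and CEP3 had 1 each, and ARP1, MIPS3, RAV1, BGAL4, ELIP2 and PRP4 had none.

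Over the 18891 promoters of tested protein-coding genes, read from 250 bases before to 50 bases after the start, the share with an ABRE core followed the size of the rise. It was 80.8% (Wilson 95% interval 73.0 to 86.7%, 101 of 125) among genes called higher by at least 4 on the log2 scale, 49.8% among those higher by 2 to 4, 38.3% at 1 to 2, 27.8% under 1 and 25.6% among genes not called, with 28.2% over all promoters. The share rose again on the other side, to 38.6% (33.2 to 44.2%, 115 of 298) among genes lower by at least 4. The G-box did not share that second rise: it was in 52.0% of the steepest risers, 6.04% of the steepest fallers and 9.19% of all promoters. Reading the other way, 39.7% of the 73 promoters with 4 or more ABRE sites belonged to genes called at least 2-fold higher, against 3.64% of the 13572 promoters without a site.

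Other motifs differed between small and large changes. The RY element CATGCA, which B3 factors of seed maturation bind, was in 34.4% of the steepest risers and 17.8% of the steepest fallers but in 7.59% of genes not called. The site II element TGGGCC, common in promoters of ribosomal and mitochondrial protein genes, was in 23.6% of genes that rose by under 1 and in 21.1% of genes not called, against 4.76% of those lower by 2 to 4 and 2.68% (1.37 to 5.21%) of those lower by at least 4. Among the steepest risers site II was in 13.6% (8.67 to 20.7%). The telo-box core AACCCTA was low on both sides, in 4.36% of the steepest fallers and 4.8% of the steepest risers against 8.88% of genes not called. The classes differed in base composition and level too: mean GC content was 36.4% among the steepest risers, 32.4% among genes not called and 30.7% among the steepest fallers, and median levels were 13.5, 14.8 and 0.788 CPM. The part of composition in these shares was not tested. Of the remaining motifs, GCCGAC (DRE core) was in 7.2% of the steepest risers and 3.72% of all promoters, GATAAG (I-box) in 24.8% and 14.6%, TTGACC (W box) in 12.8% and 14.3%, AAATATC (evening element core) in 12% and 14.4%, TTTGGCG (E2F) in 0.8% and 2.3%, and AACCGTT (MSA-like) in 1.6% and 4.0%.

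**Figure D2:**
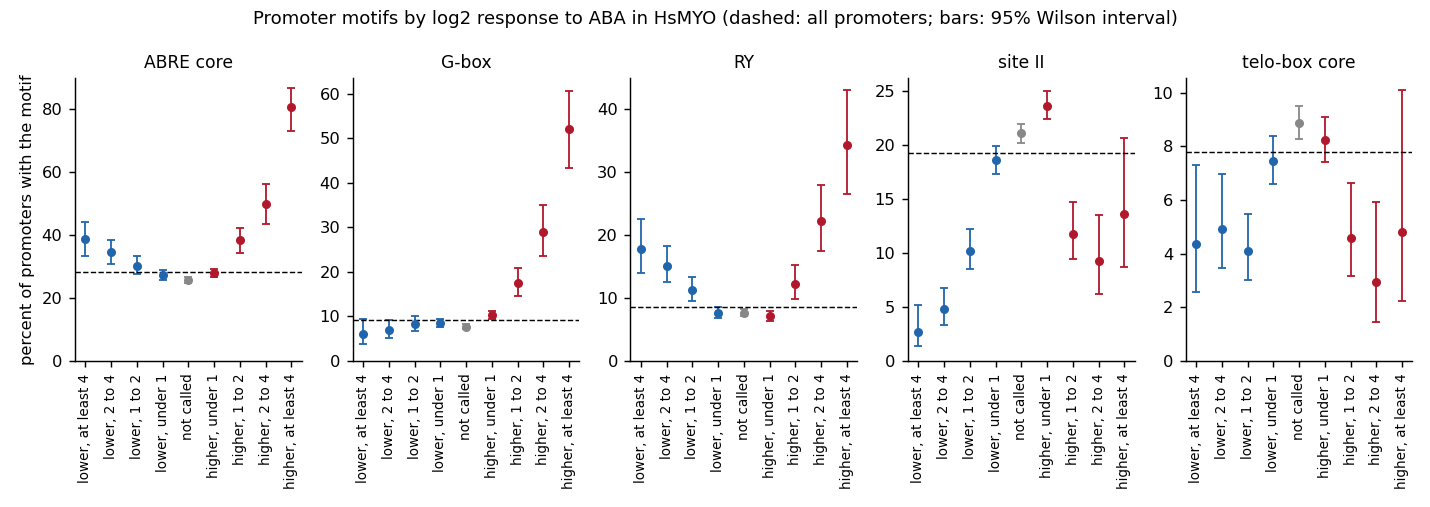
Percent of promoters (vertical axes) that hold each of 5 motifs in 9 classes of log2 response to ABA (horizontal axes, blue lower, grey not called, red higher), with 95% Wilson intervals for counting error as bars and the share over all promoters dashed. The ABRE core climbs to 80.8% among the steepest risers and to 38.6% among the steepest fallers, the G-box climbs among risers alone, and site II is rarest, at 2.68%, among the steepest fallers.

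Falls were also ranked outside the marker set, among genes with a symbol, a mean of at least 10 CPM on ethanol and over 3 ABA counts. The steepest were in genes of the cell surface, light protection and growth. CDEF1, for a cutinase-like enzyme that degrades the cuticle, went from 184 and 218 CPM on ethanol to 0.605 and 1.26 CPM on ABA (log2 -7.77 ± 0.18, adjusted p = 4e-13). GH9B15, for an endoglucanase of the wall, went from 75 and 85.6 to 0.370 and 0.407 CPM (-7.68 ± 0.47, adjusted p = 1e-08). Both genes were low but counted on ABA, with 52 and 22 counts over both libraries. ELIP2, for an early light-induced protein that binds chlorophyll under light stress, fell by 5.42 on the log2 scale. MIPS3, for an inositol phosphate synthase (-5.72), RAV1, for a growth-restraining transcription factor (-5.66), and the galactosidase gene BGAL4 (-5.56) fell as steeply. The RNA-binding protein gene ARP1 (-6.38), the proline-rich protein gene PRP4 (-5.28) and the cysteine endopeptidase gene CEP3 (-5.22) were the others.

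A few genes were close to absent under 1 treatment. RHD2, for the NADPH oxidase of root hair tips, had 365 counts on ethanol and 1 on ABA, a ratio of 431 (exact 95% interval 76.9 to 17100). The extensin-like gene HRGP1 had 609 and 1 (ratio 720, 129 to 28500), and the extensin gene EXT11 262 and 0, at least 103-fold lower if 3 counts are taken as the limit for both libraries. Root epidermis markers were low beside these genes, as given above, and their part in the result was not tested. Extensin genes are repetitive, and the split of reads among them is uncertain. The sucrose exporter gene SWEET11 had 344 counts and 2 (ratio 203, 55.9 to 1690), and TYRDC, for a tyrosine decarboxylase, 281 and 2 (ratio 166, 45.5 to 1380). In the other direction counts were lower: the feruloyl transferase gene of suberin, ASFT (annotated as RWP1), had 50 counts on ABA and 1 on ethanol (ratio 42.3, 7.25 to 1700), and CBF2, for a cold response factor, had 35 and 0, at least 9.87-fold higher. FD4, for a ferredoxin-like protein, had 44 and 2 (ratio 18.6, 4.86 to 158), and the beta-glucosidase genes BGLU29 and BGLU3 had 36 and 1 (ratio 30.5, 5.13 to 1240) and 35 and 1 (ratio 29.6, 4.98 to 1200).

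Outside the marker set, the largest changes in CPM included those of cysteine proteases and of an inhibitor. CP1, for a papain-type cysteine proteinase, went from 5638 and 5309 CPM on ethanol to 1762 and 1384 CPM on ABA (log2 -1.80 ± 0.12, adjusted p = 3.1e-09). RD21A, for another protease of the class, went from 1236 and 1212 to 278 and 258 CPM (-2.19 ± 0.08, adjusted p = 7e-12). CYS2, for a phytocystatin, a protein inhibitor of such proteases, went the other way, from 37.7 and 28.6 to 564 and 547 CPM (4.07 ± 0.14, adjusted p = 3.2e-12). No group overlapped for these 3 genes, as for 75.3% of all tested genes. The rule for naming brought these 3 together by their change in CPM or size and not by function. The aspartic protease gene ASPG1 rose by 1.40. Large losses in CPM were also seen for the aconitase gene ACO3 (-0.55), the vacuolar proton pyrophosphatase gene AVP1 (-0.70) and the methionine synthase gene ATMS1 (-0.65). Large gains were seen for the AAA-type ATPase gene DAA1 (1.97) and for TCTP (0.65), which encodes a conserved growth regulator.

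Of the gene lists with at least 10 tested members, sucrose and starch genes had the highest median, 0.41 on the log2 scale against 0.02 over all tested genes. Of its 35 members 18 were called higher and 8 lower, 74.3% against 54.0% of all genes. Sucrose synthases, which cleave sucrose reversibly, divided. SUS3 went from 16.7 and 12.4 CPM to 186 and 194 CPM (log2 3.71 ± 0.12, adjusted p = 1.7e-12), and SUS1 rose by 2.00, whereas SUS4 (-4.14), SUS5 (-1.43) and SUS6 (-2.27) fell. Invertases, which cleave sucrose without return, went down: the vacuolar invertase gene BFRUCT4 from 130 and 118 to 13.5 and 9.02 CPM (-3.45 ± 0.15, adjusted p = 2.6e-11), BFRUCT3 (-4.09) and the cytosolic CINV1 (-1.09). The 2 treatments did not overlap for any of these 8 genes, as for 75.3% of all tested genes. SPS3F, for a sucrose phosphate synthase that makes sucrose, rose from 15.2 and 13.2 to 146 and 152 CPM (3.39 ± 0.09, adjusted p = 5e-13). Among the starch genes of the list, those that rose included GBSS1 (1.59), for the granule-bound synthase, SBE2.1 (1.31), for a branching enzyme, PHS2 (1.41), for a phosphorylase, and SEX1 (0.54), for the glucan water dikinase.

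Genes next to sucrose moved in both directions. Among 17 tested enzymes of trehalose 6-phosphate, a sugar signal, 7 were higher and 8 lower (5 without HsMYO on ethanol replicate 2), with 5 and 4 called and past 2-fold; TPPF rose by 4.11 and TPS6 by 1.91, while TPPE fell by 2.89. Among 30 tested sugar transporters 7 were higher and 14 lower. Of the trehalose 6-phosphate enzymes 88.2% were called and of the sugar transporters 70.0%, against 54.0% of all genes. TMT2, for a carrier that loads sugar into the vacuole, rose by 1.94 and the inositol carrier gene INT2 by 3.64. The sucrose exporter gene SWEET12 had 28 counts on ethanol and 0 on ABA, at least 11-fold lower, though it and SWEET11 are close copies, and the uptake carrier gene SUC1 fell by 0.89. In glycolysis and gluconeogenesis 7 of 39 members were higher (4 without HsMYO on ABA replicate 1 or ethanol replicate 2) and 18 lower, 64.1% called. PCK1, for the enzyme that opens the route from oil to sugar, did not pass the test, at 4895 and 4665 CPM on ethanol and 5202 and 4683 CPM on ABA (log2 0.05 ± 0.08, adjusted p = 0.64). The phosphofructokinase genes parted, with PFK2 higher by 2.33 and PFK1 lower (-2.27).

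**Figure D3:**
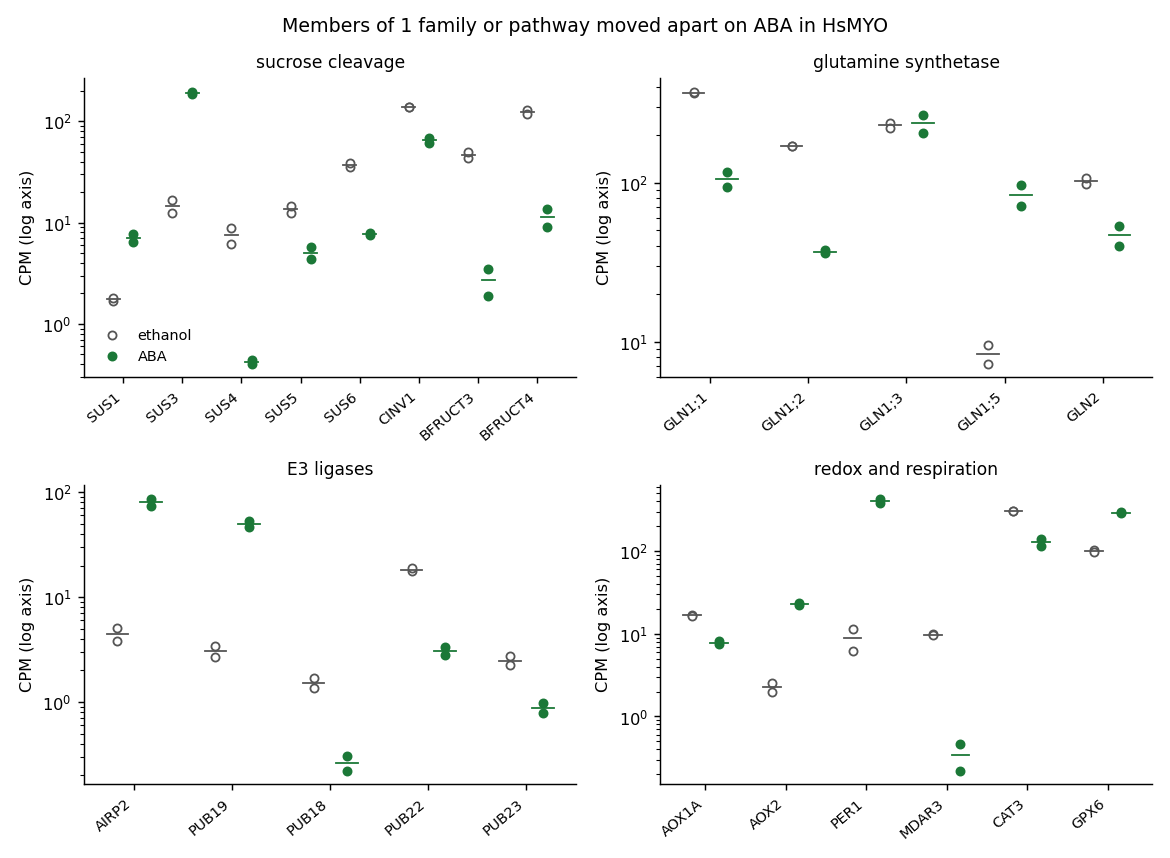
Level in each HsMYO library (CPM, vertical log axes; open grey circles ethanol, filled green circles ABA, short lines the mean of 2) for genes of sucrose cleavage, glutamine synthetase, E3 ligases, and redox and respiration. SUS3, GLN1;5, AIRP2, PUB19, AOX2 and PER1 stand higher on ABA. Other genes of the same panels, such as SUS4, BFRUCT4, GLN1;2, PUB22, AOX1A and MDAR3, stand lower.

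Nitrogen genes showed the same parting within a family, with 12 of 33 tested members higher, 13 lower and a median of 0.04. GLN1;5, a cytosolic glutamine synthetase gene known from dry seeds, went from 9.49 and 7.28 CPM to 97.1 and 71.0 CPM (log2 3.33 ± 0.18, adjusted p = 5.1e-10). GLN1;2 went from 169 and 168 to 37.6 and 36.0 CPM (-2.20 ± 0.12, adjusted p = 3.7e-10), and GLN1;1 (-1.81) and the plastid form GLN2 (-1.13) fell too. GLN1;3, at 238 and 220 CPM on ethanol and 267 and 204 CPM on ABA, overlapped between treatments and was not called (0.04, adjusted p = 0.74). The nitrate reductase gene NIA1 rose by 1.36, the glutamate dehydrogenase gene GDH1 by 1.56 and the asparagine synthetase gene ASN1 by 2.15. CLCA, for the nitrate carrier of the vacuole, fell from 94.2 and 104 to 14.9 and 15.0 CPM (-2.73), and the nitrogen-responsive repressor gene LBD38 fell by 2.85. Sulfur genes leaned lower, with 5 of 28 higher (1 without HsMYO on ABA replicate 1, 3 without either on ethanol), 14 lower and a median of -0.27. Of the nitrogen genes 75.8% were called and of the sulfur genes 67.9%, against 54.0% of all genes.

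Ion and nutrient transport genes moved in both directions. The plasma membrane proton pump gene AHA2, whose pump acidifies the wall, went from 743 and 668 CPM to 369 and 302 CPM (log2 -1.07 ± 0.10, adjusted p = 4.5e-07). The potassium channel genes KAT1 (-4.18) and SKOR (-2.62) and the malate carrier gene TDT (-1.5) fell, while CAX3, for a calcium and proton exchanger, rose by 2.68. Over the list of pumps and channels, 12 of 34 were higher and 11 lower, 67.6% called against 54.0% of all genes. The phosphate uptake gene PHT1;1 had 160 counts on ethanol and 0 on ABA, at least 63-fold lower, though it has near-identical neighbours that could share its reads. PHO2, for an enzyme that limits phosphate uptake, rose by 1.1. Of 24 phosphate genes 5 were higher and 8 lower, 54.2% called, about as often as all genes. Among 45 metal genes 18 were higher and 17 lower, 77.8% called. The ferritin gene FER2, for an iron store of seeds, rose from 9.76 and 9.96 to 98.7 and 93.6 CPM (3.29 ± 0.10, adjusted p = 1e-12). The seed metallothionein gene MT4B (annotated as AtMT4b) rose by 5.02 and MT2A by 1.51, whereas NAS3 and NAS4, for nicotianamine synthases, fell (-2.03 and -2.6).

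Of the lists with at least 10 tested members, pectin modification moved most to 1 side. Pectin, the gel of the primary wall, stiffens or loosens as pectin methylesterases act on it. Of 29 tested members none was called higher and 25 were called lower, 86.2% against 54.0% of all genes in either direction, with a median of -0.58. PME3 went from 647 and 614 CPM to 226 and 167 CPM (log2 -1.69 ± 0.11, adjusted p = 3e-09), the galactosidase gene BGAL1 fell by 1.45 and PME2 fell by 4.09. The smallest called fall was that of GAUT4, which adds galacturonate to the chain (-0.25). Callose genes leaned the same way, with 1 of 18 higher (0 to 2 when 1 library was left out) and 10 lower, 61.1% called. The callose synthase gene CALS1 (-1.15) and the plasmodesmal gene PDLP5 (annotated as HWI1, -3.0) fell.

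Lignin laccases and other xylem genes were low or uncounted on ABA. The laccase gene LAC4 (annotated as IRX12), which polymerises lignin in vessels, had 233 counts on ethanol and 0 on ABA, at least 91.8-fold lower, and LAC11 had 96 and 0, at least 37.8-fold lower. All 5 xylem markers were lower, among them the protease genes XCP1, from 9.71 and 10.3 to 1.45 and 1.26 CPM (log2 -2.89), and XCP2, from 15.2 and 18.5 to 4.13 and 2.15 CPM (-2.41). The fifth, VND7, was at 0.750 and 0.748 CPM on ethanol and 0.202 and 0.481 CPM on ABA (-1.15, adjusted p = 0.033), a call that ended without HsMYO on ABA replicate 1 (-0.64), on ethanol replicate 1 (-1.15) or 2 (-1.15), with DESeq2 and with HsMYO libraries alone. Phloem markers did not follow: SUC2, for the sucrose loader of companion cells, rose from 61.3 and 52.4 to 114 and 83.2 CPM (0.80 ± 0.11, adjusted p = 2.1e-05), and SEOR1, for a sieve element protein, by 0.76. In the phenylpropanoid list as a whole, 8 of 28 members were higher and 11 lower, 67.9% called against 54.0% of all genes. PAL1, for the entry enzyme, rose by 2.04 and the peroxidase gene PRX52 by 2.94, whereas PAL3 fell by 1.7. Of 10 tested suberin genes, 3 were higher and 4 lower, 70.0% called. Those lower included the elongase genes KCS1 (-2.10), KCS2 (-1.56) and KCS20 (-1.66), of which KCS2 and KCS20 are close copies.

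Among redox and respiration genes, single members moved far in both directions. Among 42 scavengers of peroxide and superoxide, 13 were higher (8 without HsMYO on ethanol replicate 1) and 15 lower, 66.7% called against 54.0% of all genes, with a median of -0.01. PER1, one of the known markers, for the 1-Cys peroxiredoxin of dormant seeds, went from 11.5 and 6.26 CPM to 426 and 385 CPM (log2 5.53 ± 0.23, adjusted p = 1.8e-11), and the glutathione peroxidase gene GPX6 rose by 1.54. MDAR3 (annotated as MDHAR), for a monodehydroascorbate reductase, went from 10 and 9.53 to 0.471 and 0.222 CPM (-4.77 ± 0.27, adjusted p = 6.1e-10), and the catalase gene CAT3 and the ascorbate peroxidase gene APX1 fell (-1.26 and -1.15). CAT2 (AT4G35090), the catalase gene of peroxisomes that burn fat, was not called (-0.08, adjusted p = 0.45). Of the alternative oxidases, which bypass part of the respiratory chain, AOX2 rose from 2.52 and 1.97 to 22.0 and 23.4 CPM (3.34 ± 0.14, adjusted p = 2.9e-11), while AOX1A, the stress-induced form, fell by 1.1. Glutathione transferases were split, with 14 of 35 higher and 11 lower, 71.4% called.

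In protein turnover, single E3 ligases changed by large factors and proteasome subunits by small ones. Among 35 E3 ligases with reported links to ABA, 12 were higher and 7 lower, 54.3% called against 54.0% of all genes. Of the proteasome subunits 42.6% were called. AIRP2, for a RING ligase that promotes ABA responses, went from 5.03 and 3.78 CPM to 74.1 and 86.2 CPM (log2 4.19 ± 0.13, adjusted p = 1.2e-12), and the U-box ligase gene PUB19, a reported negative regulator, from 3.40 and 2.68 to 46.5 and 53.5 CPM (4.05 ± 0.15, adjusted p = 5.2e-12). PUB18, the closest relative of PUB19, fell by 2.52, and PUB22 and PUB23 fell too (-2.57 and -1.5). The proteasome changed by small steps: 5 of 47 subunit genes were higher (2 without HsMYO on ethanol replicate 2, 3 without HsMYO on ABA replicate 1 or SYD1 on ABA replicate 1) and 15 lower, none by 2-fold, with RPN10 at -0.40. That count of 15 was 2 without HsMYO on ethanol replicate 1, 5 without HsMYO on ABA replicate 2 and 6 with HsMYO libraries alone. Autophagy genes were called about as often as all genes (51.4%), with 13 of 35 higher and 5 lower (9 without HsMYO on ABA replicate 2, 8 without SYD2 on ethanol replicate 1). NBR1, for a cargo receptor, rose by 0.45, and ATG13A (annotated as ATG13), for a subunit of the starting kinase, fell by 1.03.

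From chromatin to translation, changes were mostly small. Repair genes (52.2%), translation factors (52.0%) and DNA and histone methylation genes (56.0%) were called about as often as all genes (54.0%). Histone genes were called more often (70.6%) and small RNA genes less often (44.1%). Splicing factors of the SR family were higher in 11 of 20 members and lower in 1 (0 to 2 when 1 library was left out), with a median of 0.31; SR34b rose by 0.92. Small RNA genes were higher in 12 of 34 and lower in 3 (5 without HsMYO on ABA replicate 2, SYD1 on ABA replicate 1 or SYD2 on ethanol replicate 1), with DCL4 up by 0.51. Histone genes were lower in 19 of 34 and higher in 5, with a median of -0.29: HTA10, for an H2A, fell by 0.87, whereas the seed H2B gene HTB8 (AT1G08170) rose from 0.221 and 0 to 1.88 and 1.96 CPM (log2 4.13 ± 0.65, adjusted p = 6.3e-05) and the drought-induced linker histone gene HIS1-3 by 1.78. Of 50 genes of DNA and histone methylation 13 were higher (7 with DESeq2 and 8 without HsMYO on ABA replicate 2 or ethanol replicate 1) and 15 lower. DRM2, for the de novo DNA methyltransferase, rose by 1.03, CMT2, for a maintenance enzyme of heterochromatin, fell by 1.06, and JMJ30 (annotated as JMJD5), for a histone demethylase, rose by 2.22. Of 46 repair genes 13 were higher (8 without HsMYO on ethanol replicate 2) and 11 lower. PARP3 (AT5G22470), for a seed poly(ADP-ribose) polymerase, rose from 13.2 and 4.49 to 223 and 221 CPM (4.68 ± 0.27, adjusted p = 7.2e-10). Translation factors had 7 of 25 higher (3 without HsMYO on ethanol replicate 1, 4 without HsMYO on ethanol replicate 2, SYD1 on ABA replicate 1 or SYD2 on ethanol replicate 1) and 6 lower, with the elongation factor 2 gene LOS1 not called (-0.11, adjusted p = 0.46) and the S6 kinase gene S6K1 (annotated as PK1) lower (-1.25). Plastid transcription and translation had 1 of 30 higher (0 to 2 when 1 library was left out) and 8 lower (16 without HsMYO on ABA replicate 1). The other 21 were not called in the main fit, where this list was called less often than all genes.

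**Figure D4:**
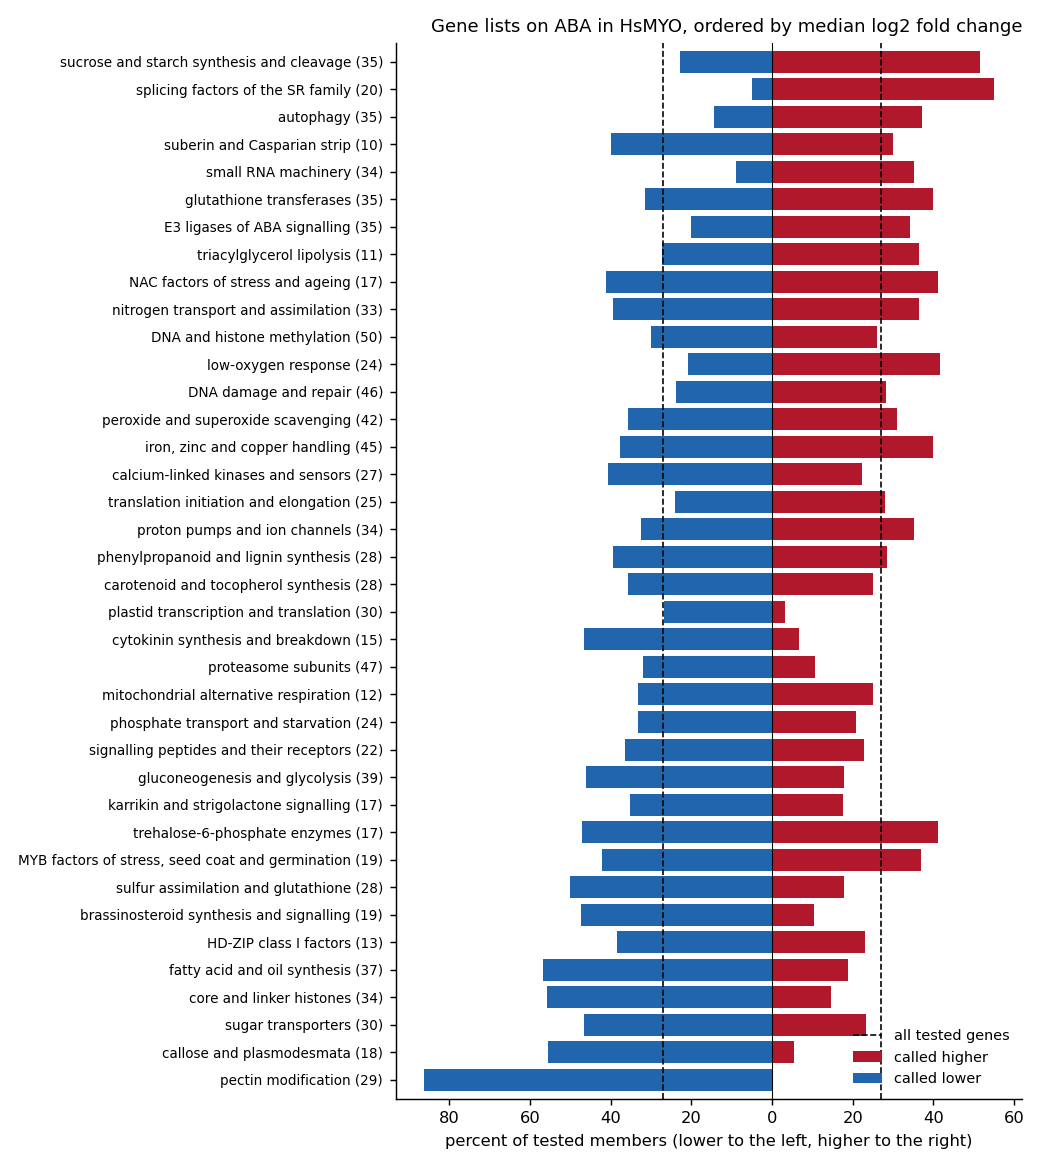
Percent of tested members called higher (red, to the right) and lower (blue, to the left) on ABA in each gene list with at least 10 tested members (number in brackets), ordered by median log2 fold change, with the shares over all tested genes, 26.9% and 27.1%, dashed. Sucrose and starch genes stand at the top and pectin modification, with 25 of 29 lower, at the bottom.

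Lists of other hormones were called about as often as all genes: 53.3% of cytokinin, 52.9% of karrikin and strigolactone, 57.9% of brassinosteroid and 59.1% of signalling peptide genes, against 54.0%. Single members changed by large factors. Cytokinin synthesis and breakdown had 1 of 15 members higher and 7 lower: the isopentenyl transferase gene IPT5 fell from 2.16 and 2.64 to 0.134 and 0.0740 CPM (log2 -4.44 ± 0.41, adjusted p = 2.1e-07) and the hydroxylase gene CYP735A2 fell too (-2.51), while LOG5, for an activating enzyme, rose by 1.47. Strigolactone synthesis genes MAX1 and MAX4 (annotated as CCD8) fell (-3.18 and -3.21); 3 of 17 genes of the karrikin and strigolactone list were higher and 6 lower. Brassinosteroid genes had 2 of 19 higher, the hydroxylase gene ROT3 (1.09) and the response gene BEE2 (1.67), and 9 lower. RALF1, for a peptide that restrains root growth, fell by 2.3, and PSK1, for a growth-promoting peptide, rose by 1.01, in a list with 5 of 22 higher and 8 lower. Among NAC factors 7 of 17 were higher and 7 lower, 82.4% called against 54.0% of all genes. NAC060, a reported negative regulator of ABA signalling in germination, rose by 2.35 and NAC089 by 2.15, while RD26, known for its rise with drought and ABA in leaves, went from 10.8 and 13.4 to 3.39 and 4.22 CPM (-1.68 ± 0.15, adjusted p = 1.3e-07). MYB74, for a salt and drought factor, rose by 4.12 and the class I homeodomain gene HB-7 by 2.97, whereas HB20 fell by 3.81. MYB factors had 7 of 19 higher (4 without HsMYO on ethanol replicate 2) and 8 lower, 78.9% called. Class I homeodomain factors had 3 of 13 higher and 5 lower, 61.5% called. Calcium-linked kinases and sensors had 6 of 27 higher (3 without HsMYO on ABA replicate 2) and 11 lower, 63.0% called. Of 7 tested kinases of an ABA-linked MAP kinase cascade, 4 were higher (2 without HsMYO on ethanol replicate 2) and 1 lower, 71.4% called. MPK1 rose by 0.92 and MAPKKK19 fell by 1.00. Of 7 tested ABA transporter genes 4 were higher (2 without HsMYO on ABA replicate 2) and 2 lower, 85.7% called. The exporter gene ABCG25 was up by 0.52 and ABCG18 down (-3.45).

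Oil synthesis fell back in small steps, with 21 of 37 genes lower, 7 higher and a median of -0.28. WRI1, the master regulator of the pathway (-0.94), and ROD1, which shifts fatty acids into oil (-1.4), fell. FAD2, for the desaturase that makes linoleate, was among those higher, at 433 and 459 CPM on ethanol and 746 and 737 CPM on ABA (log2 0.73 ± 0.08, adjusted p = 1.6e-06). Of 11 lipolysis and oil body genes 4 were higher (2 without HsMYO on ethanol replicate 2) and 3 lower (1 without HsMYO on ABA replicate 2 or ethanol replicate 1); the oil body gene OBAP1A (AT1G05510) rose by 4.35 and the lipase gene SDP1 fell by 0.31. Carotenoid and tocopherol synthesis had 7 of 28 higher and 10 lower. ABA1, for an epoxidase on the way to ABA itself, rose by 1.17 and the tocopherol cyclase gene VTE1 by 1.98. The phytol kinase gene VTE5 fell by 2.67. Of the oil synthesis genes 75.7% were called, of the lipolysis genes 63.6% and of the carotenoid and tocopherol genes 60.7%. Of all tested genes 54.0% were called, 26.9% higher and 27.1% lower.

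Noncoding transcripts leaned upward where coding ones of the same level leaned downward. Of 404 tested noncoding genes (annotated as lncRNA, ncRNA or misc_RNA), 124 were called higher and 25 lower, with a median log2 fold change of 0.42. Protein-coding genes within the interquartile range of their levels, 0.446 to 2.91 CPM, numbered 2610, of which 429 were higher and 800 lower, with a median of -0.10. The libraries were stranded, but the strand setting of the count is not given in the sources used here, so reads of overlapping genes cannot be told apart. Among the 246 noncoding genes that overlap no protein-coding gene, 84 were higher and 17 lower, with a median of 0.41; of the 124 that rose, 9 overlapped a coding gene that also rose. Pseudogenes leaned the same way, with 53 of 168 higher and 12 lower, though reads of a parent gene may be counted there.

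GUT15 (AT2G18440), a known noncoding RNA gene of chromosome 2 (7994941 to 7997239), went from 180 and 210 CPM to 280 and 351 CPM (log2 0.69 ± 0.11, adjusted p = 7.2e-05). Of the genes with no symbol, chosen after their values were seen, AT2G14878 on chromosome 2 (6392167 to 6393042) went from 25.6 and 27 to 152 and 146 CPM (2.5 ± 0.07, adjusted p = 7e-13), and AT5G48412 on chromosome 5 (19623516 to 19624232) rose by 2.14. All 3 overlap no coding gene. Their treatments did not overlap, as for 75.3% of all tested genes.

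**Figure D5:**
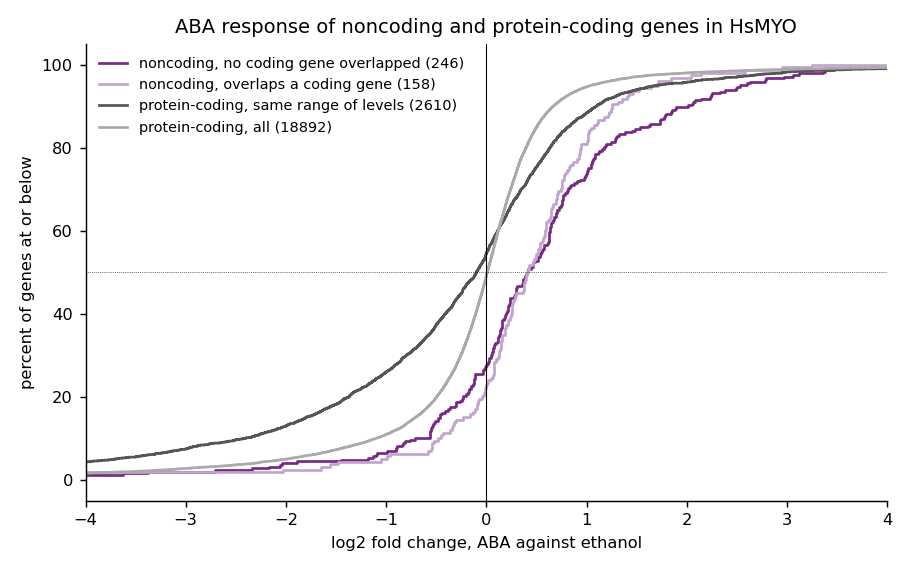
Cumulative percent of genes (vertical axis) by log2 fold change on ABA (horizontal axis, drawn from -4 to 4) for noncoding genes without and with an overlapping coding gene, for protein-coding genes in the same range of levels and for all protein-coding genes. Both noncoding curves lie to the right, with medians near 0.4, and the protein-coding genes of like level lie to the left of 0.

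The response of the SYD lines differed from that of HsMYO for 1008 of 19612 genes (5.14%; interaction contrast, adjusted p under 0.05), 527 with a higher response (2.69%) and 481 with a lower one (2.45%). That count rested on single libraries: leaving out HsMYO on ABA replicate 1 gave 1576, and leaving out HsMYO on ethanol replicate 1 gave 540, of which 294 were higher and 246 lower. Without HsMYO on ABA replicate 1 or 2 the higher responses numbered 915 or 341, and without HsMYO on ethanol replicate 2 or SYD1 on ABA replicate 1 the lower ones numbered 318 or 280. Against that share, differences were called for 13 of 28 phenylpropanoid genes, 11 of 24 low-oxygen genes and 9 of 35 sucrose and starch genes. The low-oxygen genes had 10 of 24 members higher in HsMYO and 5 lower (3 without HsMYO on ethanol replicate 2). For that response 62.5% of them were called, against 54.0% of all genes. ADH1, for alcohol dehydrogenase, rose in HsMYO from 43.0 and 49.6 to 154 and 144 CPM (log2 1.69), with log2 fold changes of 0.40 in SYD1 and 0.18 in SYD2, neither called (difference of the SYD lines from HsMYO -1.39 ± 0.23, adjusted p = 0.0021). PAL1 differed by -1.5 (adjusted p = 0.00018), SPS3F by -0.99 (adjusted p = 0.00012) and BFRUCT4 by 1.23 (adjusted p = 0.00061), each a smaller response in the SYD lines, and these 4 differences were called whichever library was left out. These differences use the same HsMYO libraries as the response itself, so a gene singled out for a large response in HsMYO tends to differ in this direction. For CBSX4, NADP-ME1, AIRP2 and AOX2 the difference was not called, at 0.22 ± 0.24, -0.21, 0.17 and 0.21, which does not show that the lines respond alike.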

How the data were processed

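RNA from germinating seeds was sequenced as 100 bp pairs from stranded mRNA libraries, per the labels' protocols. The authors deposited a table of raw counts per gene. The submitters' processing notes name Trimmomatic 0.39, STAR 2.7.10a and the TAIR10 build; the sources used here do not give the strand and multi-mapping settings of the count. Of 36795 entries, 36632 were matched to the RefSeq TAIR10.1 annotation, used for names, coordinates and promoters, and 10729 had no count in any library. The counts were fitted as deposited with edgeR 4.0.16 (TMM factors, filterByExpr with a minimum count of 10, quasi-likelihood F-test, 1 mean for each of 6 groups of 2 libraries, Benjamini-Hochberg adjustment over all 19612 tested genes), with 6 residual degrees of freedom. The other libraries were kept in the fit because 2 against 2 leaves little to estimate the spread. Library totals ran from 18713555 to 30012796, and 3 counts equal 0.101 to 0.132 CPM in HsMYO. Intervals on ratios and shares cover counting error only.

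The genes and gene lists were chosen with earlier results of these data known, so their counts are descriptions beside the share over all genes. The rule for named genes took the 10 genes with the largest called rise and fall, 5 near-absent genes each way and the largest gains and losses in CPM. These choices left out the set of well known markers. It also took the steadiest genes, and in each list the largest called changes and the member with the highest mean CPM. Another 63 genes were named after their values were seen. DESeq2 1.42.0, other scaling and filters, a replicate block and leaving out each library were tried. The fitting steps were tested on simulated data.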

Additional observations from a re-analysis of the deposited data

Results flagged for a closer look

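The ABA response of the SYD lines was called different from that of HsMYO for 44 named genes (interaction contrast, edgeR's quasi-likelihood test, adjusted p under 0.05). The values are log2 differences, SYD lines minus HsMYO. Since many of the genes were named for their response in HsMYO and the same libraries enter both, differences that shrink the response are favoured by the choice. Some were named for the highest level in a list, among them C4H and AT5G57710, whose response in HsMYO was not called.

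For 18 of the 44 the call held whichever library was left out. Responses were weaker in the SYD lines for the sucrose genes SPS3F (-0.99), SUS5 (1.04), SUS6 (1.31), BFRUCT3 (1.62) and BFRUCT4 (1.23). They were weaker for ADH1 (-1.39) and the low-oxygen gene AT4G27450 (-0.74), for the phenylpropanoid genes PAL1 (-1.50) and PRX52 (-1.06) and for the proteases CP1 (1.06) and RD21A (0.75). MIPS3 (2.28) and the xylem protease gene XCP1 (1.00) fell less, and the noncoding genes AT2G14878 (-0.70) and AT5G48412 (-0.67) rose less. BGLU29 (-4.93), LOG5 (-2.80) and MYB15 (-2.80) rose in HsMYO and had log2 fold changes at or below 0 in both SYD lines.

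For the other 26 the call ended without 1 library or more. CDEF1 differed by -4.19, a fitted value where the SYD lines had few or no counts on ABA, CEP3 by 1.62 and RHD2 by 3.64, likewise from low counts on ABA. AT1G05510 (OBAP1A) differed by -2.54, ASN1 by -1.50, JMJD5 by -1.01, PUB19 by -0.92, BEE2 by -0.78, RALF1 by -0.59, FER2 by -0.59 and SUS3 by -0.58. Smaller differences were those of SUC1 (-0.52), SUC2 (-0.50), AT5G57710 (-0.50), C4H (-0.46), MAPKKK19 (-0.45), GPX6 (-0.44), SIP3 (-0.40), ROT3 (-0.36) and DAA1 (-0.34). In the other direction were TDT (0.68), CYS2 (0.66), ERD9 (0.61), GLN1;1 (0.51), APX1 (0.40) and CMT2 (0.37). CDEF1, RALF1, MAPKKK19 and SUC1 fell further in the SYD lines than in HsMYO, and CYS2 rose further. The calls of RALF1 and ROT3 ended whichever library was left out.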

How the results depend on the processing

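The count of genes called in the HsMYO response, 10594, stayed within 1.5 times under every setting run. It was 10525 with DESeq2's size factors, 10300 with library totals, 10733 with no low-count filter, 10053 with a stricter filter, 9213 with HsMYO libraries alone, 8950 with DESeq2, 8142 at an adjusted p under 0.01 and 8461 to 10719 when each library was left out. Leaving out each library gave 3905 to 5301 higher and 4556 to 5776 lower genes, and 2790 to 3105 with 2-fold changes, 912 to 1139 of them higher and 1844 to 2045 lower. No gene called in the main and another setting changed direction. For the 240 named genes, 4708 of 4779 recomputed values kept direction and side of the threshold, 52 lost the call and 19 gained one. Of 2000 recomputed list counts 102 moved by over 1.5 times, mostly counts of small changes. With 250 bases in place of 300, 48 of 110 promoter shares left their interval; the ABRE core was in 77.6% of the steepest risers and 24.0% of all promoters.

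The count of differences between the lines was less stable. From 1008 (527 higher, 481 lower) it went to 1817 with no low-count filter (1125 higher) and to 1625 with the replicate number as a block (869 higher, 756 lower). Leaving out each library gave 540 to 1576, with 294 to 915 higher and 246 to 661 lower. The cause was not tested. Replicate numbers share no stated source. Residual correlations of same-numbered libraries of different groups ran from -0.034 to 0.149, and the block gave 11297 calls for the HsMYO response. Whether libraries of the same number share a batch was not tested. With 2 libraries a group, small changes and genes under 1 CPM are the least secure.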
